A study of Rattus norvegicus with 6 samples.

Results

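The genes described here carry long-chain fatty acids into cardiac muscle cells and oxidize them in mitochondria. They were chosen by name, as the rows of the deposited expression table whose gene symbol was Cd36, Fabp3, Acsl1, Cpt1b, Cpt2, Acadm, Acadl, Acadvl, Hadha or Hadhb. A row was found for 9 of these 10 genes, among 28293 genes in all. Cd36, which encodes a fatty acid transporter of the cell membrane, was not analysed here. The 9 genes all passed the filter on low values, and the lowest of their values was 8.12 FPKM.

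RNA sequencing addressed gene expression, and Hsp27 in particular, during reperfusion of the rat heart. Myocardial tissue came from wild-type male rats in a sham group of 3 samples and a myocardial ischemia/reperfusion injury (MI/RI) group of 3 samples. In MI/RI rats, flow in the left anterior descending coronary artery was stopped for 30 min and restored for 6 h before the heart was taken. Sham rats underwent a sham operation, and their labels carry the same times. Rats of the study's treatment experiment received PBS by the caudal vein in both of these groups, which is not stated for the sequenced samples. The strain, the age and the region of the heart that was sequenced are not given in the sources used here. The study describes its heat maps of these groups as representative of independent experiments, and the labels do not say that each sample was a separate animal. The p-values measure only the spread between these samples, which may be technical.

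The resting heart obtains most of its energy from long-chain fatty acids. These are bound in the cytosol by fatty acid binding proteins, joined to coenzyme A at the outer mitochondrial membrane, carried into the matrix as carnitine esters, and shortened there by repeated rounds of dehydrogenation, hydration, dehydrogenation and thiolysis. Transcription of the genes is known to be driven by PPAR-alpha with its partner RXR, by estrogen-related receptors and by the coactivator encoded by Ppargc1a, while malonyl-CoA restrains the entry of fatty acids into the mitochondria.

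Expression values were FPKM, fragments counted on a gene relative to its length and to the total of the library. Their sum per sample was 894902 to 928941 in the sham group and 731063 to 825490 in the MI/RI group. FPKM gives no fragment counts, so the absolute depth is unknown. Depth relative to sham replicate 1, read from the steps of genes with very low values, was 1.14 and 1.18 in the other sham samples and 0.873 to 0.935 in the MI/RI samples. Mitochondrial DNA encodes 13 of the mRNAs, and these made up 80.1% to 86.2% of the summed FPKM in the sham group and 61.8% to 71.5% in the MI/RI group. In accord with the labelled tissue, cardiomyocyte markers were present in every sample, and the sum over 7 of them was 2859 to 8574 FPKM in the sham group, against 19774 to 30339 FPKM in the MI/RI group. In tissue RNA, fewer cells of a type and less RNA per cell cannot be told apart. Both shifts run along with every difference reported below, and their size is set beside the fatty acid oxidation genes after the single genes.

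Each of the 9 genes was higher in every MI/RI sample than in every sham sample, though 7 of these directions turned when samples were centred on their cardiomyocyte markers. That centring takes the same amount from every log2 fold change, and 85.7% of the genes tested were then called lower. As background without this centring, 37.2% of the 10942 genes tested were higher without overlap and 13.0% were lower without overlap. By limma on log2(FPKM + 0.1), with Benjamini-Hochberg adjustment over all genes tested, 7 of the 9 were called higher at an adjusted p under 0.05, and none had a log2 fold change below 0. Over all genes tested, 25.5% were called higher and 7.36% lower. The log2 fold changes of the 9 genes ran from 1.06 to 2.67 with a median of 1.69, while the median of all genes tested was 0.29. Cpt1b and Hadhb missed the threshold. The replicate numbers of the groups are the same, and with that number as a replicate block all 9 were called higher, against 28.2% of the genes tested. For single genes, the two-sided exact permutation test gave p = 0.1 throughout, the smallest p that 3 samples against 3 allow. MI/RI replicate 1 had the highest value of every one of the 9 genes.

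**Figure D1:**
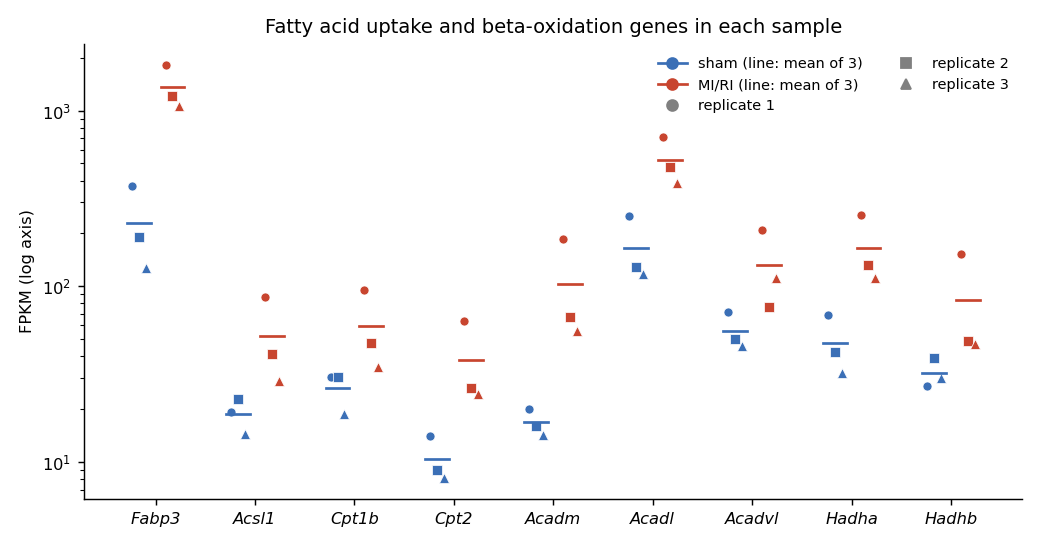
FPKM (log axis) of the 9 fatty acid uptake and beta-oxidation genes in the 3 sham samples (blue) and the 3 MI/RI samples (red), with symbols for the replicate numbers and a line at each group mean. No red point lies at or below a blue point of the same gene, and the highest point of each gene is MI/RI replicate 1, for example 1822 FPKM for Fabp3.

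Fabp3 (ENSRNOG00000012879) encodes the fatty acid binding protein of heart muscle, which carries fatty acids through the cytosol. It was at 373, 191 and 127 FPKM in sham replicates 1 to 3 and at 1822, 1215 and 1062 FPKM in MI/RI replicates 1 to 3. Even the lowest MI/RI sample stood well above the highest sham sample. The sham mean was 230.3 ± 127 FPKM and the MI/RI mean 1366 ± 402 FPKM (SD, n = 3 each). Fabp3 rose by 2.67 on the log2 scale (SE 0.39, adjusted p = 0.00308, limma), the largest log2 fold change among the 9 genes. Of all genes tested, 0.987% had a larger log2 fold change.

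The genes of activation and of the carnitine shuttle, Acsl1, Cpt1b and Cpt2, were also higher without overlap, and Acsl1 and Cpt2 passed the threshold. Acsl1 (ENSRNOG00000010633) encodes the main long-chain acyl-CoA synthetase of the heart, which joins fatty acids to coenzyme A. It was at 19.4, 22.9 and 14.5 FPKM in sham replicates 1 to 3 and at 87.4, 41.5 and 28.9 FPKM in MI/RI replicates 1 to 3. Acsl1 rose by 1.34 on the log2 scale (SE 0.38, adjusted p = 0.0247, limma). MI/RI replicate 1 stood far above the other samples of its group, and without it the change came to 0.89 on the log2 scale (adjusted p = 0.0495, limma). The call was lost without sham replicate 2 (adjusted p = 0.0580, limma) and without sham replicate 3 (adjusted p = 0.0858, limma).

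Cpt1b (ENSRNOG00000010438) encodes the muscle form of the carnitine palmitoyltransferase of the outer membrane, the step that malonyl-CoA inhibits. It was at 30.7, 30.4 and 18.8 FPKM in sham replicates 1 to 3 and at 95.5, 47.4 and 35.0 FPKM in MI/RI replicates 1 to 3. There was little distance between the lowest MI/RI value and the highest sham value. The log2 fold change of 1.06 (SE 0.37) did not pass the threshold (adjusted p = 0.0534, limma), and with the replicate block it did (adjusted p = 0.00698, limma). Without MI/RI replicate 1 it was 0.65 (adjusted p = 0.135, limma), and without MI/RI replicate 3 it was 1.37 and was called (adjusted p = 0.0258, limma).

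Cpt2 (ENSRNOG00000012443), the carnitine palmitoyltransferase of the inner membrane, which returns the acyl group to coenzyme A in the matrix, had the lowest level of the 9 genes in both groups. It was at 14.1, 9.04 and 8.12 FPKM in sham replicates 1 to 3 and at 63.3, 26.3 and 24.3 FPKM in MI/RI replicates 1 to 3. Cpt2 rose by 1.75 on the log2 scale (SE 0.38, adjusted p = 0.00873, limma). The inner-membrane enzyme thus had the larger log2 fold change of the 2 palmitoyltransferases, and the difference between them was not tested.

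All 3 acyl-CoA dehydrogenases, which take the first electrons from fatty acids of different chain lengths, were called higher. Acadm (ENSRNOG00000009845), the medium-chain enzyme, was at 20.1, 16.2 and 14.3 FPKM in sham replicates 1 to 3 and at 185, 66.6 and 55.8 FPKM in MI/RI replicates 1 to 3. It rose by 2.40 on the log2 scale (SE 0.41, adjusted p = 0.00424, limma), and 1.62% of the genes tested had a larger log2 fold change. The sham mean was 16.9 ± 2.96 FPKM and the MI/RI mean 103 ± 71.9 FPKM (SD, n = 3 each). MI/RI replicate 1 stood far above the others of its group, and without it Acadm still rose, by 1.86 (adjusted p = 0.00504, limma).

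Acadl (ENSRNOG00000012966), the long-chain enzyme, was at 253, 128 and 118 FPKM in sham replicates 1 to 3 and at 703, 478 and 385 FPKM in MI/RI replicates 1 to 3. It was the most abundant of the 3 in every sample. Acadl rose by 1.69 on the log2 scale (SE 0.35, adjusted p = 0.00765, limma). Acadvl (ENSRNOG00000018114), the very-long-chain enzyme bound to the inner membrane, was at 71.2, 50.0 and 45.8 FPKM in sham replicates 1 to 3 and at 209, 76.2 and 112 FPKM in MI/RI replicates 1 to 3. Sham replicate 1 and MI/RI replicate 2 lay close together, so the groups were narrowly apart. Acadvl rose by 1.15 on the log2 scale (SE 0.36, adjusted p = 0.0366, limma). With samples left out, this call was lost most often among the 7, without sham replicate 2 (adjusted p = 0.119), without sham replicate 3 (adjusted p = 0.116), without MI/RI replicate 1 (log2 fold change 0.75, adjusted p = 0.0858) and without MI/RI replicate 3 (adjusted p = 0.0615, limma).

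Promoter sequence was available in RefSeq (build GRCr8) for 8 of the 10 genes named at the start, not for Acadl and Cpt1b, as windows from 250 bases before to 50 bases after the start of the gene. Cd36, whose expression was not analysed, is among the 8. The others of the 8 were higher together, so all the windows were searched on both strands for nuclear receptor sites and for other promoter motifs. The motifs were the nuclear receptor hexamer AGGTCA, the estrogen-related receptor core AAGGTCA, a direct repeat of the hexamer spaced by 1 base (DR1, the kind of site that PPAR and RXR bind) with at most 1 mismatch, the cyclic AMP response element TGACGTCA, the GC box GGGCGG and the CCAAT box CCAAT. The estrogen-related receptor core and the repeat contain the hexamer or a near copy of it. The Acadm and Acadvl stretches are shown because they held the rarest matches among the 8 genes. The 250 bases before the start of Acadm (chr2:245542865-245543114, minus strand) and of Acadvl (chr10:55236706-55236955, minus strand) read as follows, 5′ to 3′, with the cyclic AMP response element of Acadm and the hexamers and direct repeat of Acadvl in capitals.
Acadm: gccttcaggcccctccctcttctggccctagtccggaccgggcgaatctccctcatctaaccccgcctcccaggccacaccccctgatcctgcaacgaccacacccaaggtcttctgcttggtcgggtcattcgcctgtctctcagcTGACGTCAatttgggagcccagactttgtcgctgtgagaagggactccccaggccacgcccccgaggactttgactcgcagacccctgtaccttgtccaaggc
Acadvl: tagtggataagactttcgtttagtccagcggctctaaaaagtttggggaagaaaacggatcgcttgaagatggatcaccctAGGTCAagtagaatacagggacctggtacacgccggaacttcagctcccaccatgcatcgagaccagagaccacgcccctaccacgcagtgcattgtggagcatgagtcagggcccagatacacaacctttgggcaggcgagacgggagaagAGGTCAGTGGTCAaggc

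With the start of the gene as position 0, the cyclic AMP response element of Acadm began at -103, and 1.83% of 33469 rat promoter windows held this motif. Acadvl held the hexamer at -169 and at -17, a motif in 16.2% of the windows. The match at -17 is also the first part of a direct repeat with 1 mismatch, which 0.439% of the windows held. None of the other 7 genes with a window had such a repeat. The hexamer was also in the window of Hadhb, there as part of the estrogen-related receptor core, at 42 bases after the start, and 4.61% of the windows held that core. The GC box was in 4 of the 8 windows (Acadm, Cpt2, Hadha and Hadhb) against 33.1% of all windows, where the box between Hadha and Hadhb counts for both, and the CCAAT box in 2 of the 8 (Acsl1 and Hadha) against 37.5%. A match describes the letters of the window and not binding of a factor.

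Hadha and Hadhb encode the alpha and beta subunits of the mitochondrial trifunctional protein, which carries out the last 3 steps of each round for long chains. In the rat genome they lie head to head, with 300 bases between their starts, so that their promoter windows share 200 bases. That shared stretch (chr6:31907551-31907750, plus strand, reading toward Hadha) is shown because both genes are transcribed away from it, with the GC box, which lies on the opposite strand, in capitals.
Hadha: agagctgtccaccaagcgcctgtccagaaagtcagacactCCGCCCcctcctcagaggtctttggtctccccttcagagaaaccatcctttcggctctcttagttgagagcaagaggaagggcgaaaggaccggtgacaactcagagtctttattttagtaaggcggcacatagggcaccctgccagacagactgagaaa

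Hadha (ENSRNOG00000024629) was at 68.5, 42.5 and 32.3 FPKM in sham replicates 1 to 3 and at 254, 132 and 111 FPKM in MI/RI replicates 1 to 3. It rose by 1.77 on the log2 scale (SE 0.37, adjusted p = 0.00800, limma). Hadhb (ENSRNOG00000010800) was at 27.3, 39.1 and 30.3 FPKM in sham replicates 1 to 3 and at 154, 48.7 and 47.0 FPKM in MI/RI replicates 1 to 3. Here MI/RI replicates 2 and 3 lay just above sham replicate 2, and MI/RI replicate 1 stood far apart. The log2 fold change of Hadhb was 1.15 (SE 0.42, adjusted p = 0.0631, limma), and with the replicate block it passed the threshold (adjusted p = 0.0324, limma). Without MI/RI replicate 1 it was 0.59 (adjusted p = 0.104, limma), and it was called without MI/RI replicate 2 (1.41, adjusted p = 0.0454) or without MI/RI replicate 3 (1.44, adjusted p = 0.0394, limma).

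The subunit genes share their upstream region, and their ratio is therefore given for each sample. Hadha over Hadhb was 2.51, 1.09 and 1.06 in sham replicates 1 to 3, against 1.65, 2.71 and 2.36 in MI/RI replicates 1 to 3. The groups overlapped, since sham replicate 1 was within the range of the MI/RI group. On the log2 scale the mean ratio was 0.51 ± 0.70 for sham and 1.13 ± 0.37 for MI/RI (SD, n = 3 each; two-sided exact permutation test, p = 0.3, adjusted over 5 ratios p = 0.3).

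FPKM is per length of gene, so the levels of the genes can be ordered within a group. In the sham group the order by mean FPKM was Fabp3, Acadl, Acadvl, Hadha, Hadhb, Cpt1b, Acsl1, Acadm and Cpt2. Only 2 neighbouring pairs had ranges apart, which were Acadl over Acadvl and Acadm over Cpt2. In the MI/RI group the order was Fabp3, Acadl, Hadha, Acadvl, Acadm, Hadhb, Cpt1b, Acsl1 and Cpt2, and the ranges were apart for Fabp3 over Acadl and for Acadl over Hadha. The ranges of the other neighbours overlapped. Within each library, however, the order of neighbours was that of the means in all 3 samples of a group, except for Hadhb over Cpt1b and Acsl1 over Acadm in the sham group and Hadha over Acadvl in the MI/RI group, which held in 2 of 3 samples each. Acadm was at place 8 in the sham group and at place 5 in the MI/RI group.

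Other genes of fatty acid metabolism were taken from a list of 62 by role. Of these, 61 had a row and 55 passed the filter on low values. In limma 25 of the 55 were called higher and 1 lower, against the background of 25.5% and 7.36%, and the median log2 fold change was 0.65. With the replicate block 25 were higher and 3 lower, where 8.18% of all genes tested were lower. The added genes were Fabp4 (adjusted p = 0.00952, limma) and Ucp3, which encodes a mitochondrial uncoupling protein of muscle (adjusted p = 0.0422, limma). The count of genes called higher was 16 without sham replicate 2 and 13 without sham replicate 3, against 1919 and 1528 of all 10942 genes tested. The count called lower was 2 without sham replicate 1 and 2 without sham replicate 3, against 881 and 359 of all genes tested. It was 0 without sham replicate 2 and 0 without MI/RI replicate 3 (limma), where 2 and 3 genes were lower at an unadjusted p under 0.05.

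The calls were spread unevenly over the roles, which was not tested. The shares over all genes tested were 25.5% called higher and 7.36% called lower. Of the 12 other enzymes of beta-oxidation in the matrix, 11 were called higher, and all 12 were higher without overlap, which held for 37.2% of all genes tested, though all but Acads had a negative log2 fold change when samples were centred on cardiomyocyte markers. The count called higher came to 6 without sham replicate 3, 7 without sham replicate 2 and 7 without MI/RI replicate 1. Over all 10942 genes tested it came to 1528, 1919 and 2063, in the same order. For the 12 enzymes it was 6 after rescaling without the mitochondrially encoded mRNAs, against 7.06% of all genes tested. With quantile normalization it was 4, against 13.2%. After centring on cardiomyocyte markers 0 of the 12 were called higher and 6 lower, where 85.7% of all genes tested were called lower (limma). The largest log2 fold change was that of Acads, the short-chain acyl-CoA dehydrogenase, which was at 23.0, 14.1 and 11.8 FPKM in sham replicates 1 to 3 and at 179.6, 62.7 and 62.7 FPKM in MI/RI replicates 1 to 3. Acads rose by 2.50 on the log2 scale (SE 0.42, adjusted p = 0.00408, limma). The smallest was that of Acad11, another acyl-CoA dehydrogenase, at 0.76 (SE 0.29, adjusted p = 0.0667, limma). In the peroxisome, which shortens very long chains with enzymes of its own, 1 of 8 genes tested was called. This was Scp2, a sterol carrier protein with thiolase activity, which rose by 1.42 (SE 0.24, adjusted p = 0.00413, limma). At the other end was Abcd3, a transporter of the peroxisomal membrane, at -0.32 (SE 0.22, adjusted p = 0.279, limma). The difference between the matrix and peroxisomal enzymes was not tested.

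Of 9 other genes of activation and carnitine transport, 4 were called higher, against 25.5% of all genes tested. Crat, the carnitine acetyltransferase, rose most, by 1.88 (SE 0.41, adjusted p = 0.00873, limma). The others were Slc25a20, the carnitine-acylcarnitine carrier of the inner membrane (1.48, adjusted p = 0.0142), and the acyl-CoA synthetases Acsl5 (0.93, adjusted p = 0.0191) and Acsl6 (1.75, adjusted p = 0.0473, limma), named after their values were seen. The count called higher was 2 without sham replicate 2 (all genes 1919 of 10942) and 1 without sham replicate 3 (all genes 1528 of 10942). In the latter case the adjusted p of the last 3 genes was 0.0537, 0.0686 and 0.149 in the same order (limma), and the groups overlapped for Acsl6. All 4 had a negative log2 fold change after centring on cardiomyocyte markers, where 85.7% of all genes tested were called lower. Cpt1c, a carnitine palmitoyltransferase best known from brain, was the lowest of the list, at -0.73 (SE 0.33, adjusted p = 0.115, limma).

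Among 6 other genes of uptake, binding and lipolysis, 1 was called higher, against 25.5% of all genes tested. Their median log2 fold change was -0.19. The call was for Got2, mitochondrial aspartate aminotransferase, which is also listed as a fatty acid binding protein of the membrane. Got2 rose by 1.96 (SE 0.38, adjusted p = 0.00625, limma). Its log2 fold change was below 0 after centring on cardiomyocyte markers, where the median of all genes tested was -2.10. Fabp4, the fatty acid binding protein of adipocytes and of endothelial cells in the heart, had the lowest log2 fold change of the list, -0.96 (SE 0.40, adjusted p = 0.0905, limma).

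**Figure D2:**
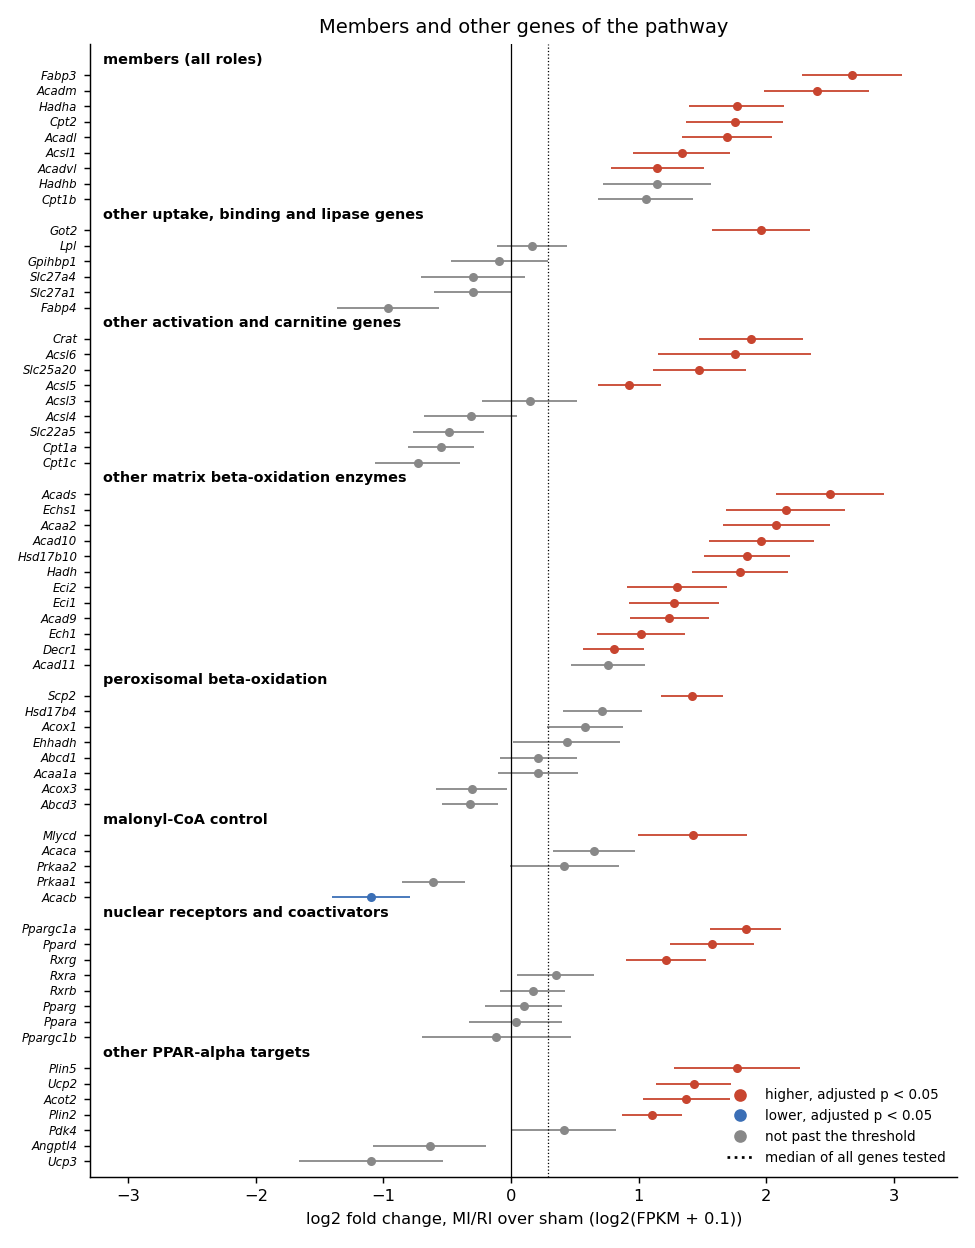
Log2 fold change of MI/RI over sham on log2(FPKM + 0.1), with its standard error from limma, for the 9 fatty acid uptake and beta-oxidation genes (members) and the 55 other pathway genes tested, grouped by role. Red marks genes called higher, blue genes called lower and grey genes that did not pass the threshold, and the dotted line is the median of all genes tested, 0.29. Matrix enzymes lie to the right of this line, the lowest at 0.76, and Acacb and Ucp3 are farthest to the left at -1.10. After centring on cardiomyocyte markers all but 3 of the genes drawn would lie below 0, and the median of all genes tested would lie at -2.10.

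Malonyl-CoA control comprised 5 genes, with 1 called in each direction, against 25.5% higher and 7.36% lower over all genes tested. Acacb, the acetyl-CoA carboxylase at the mitochondrial surface that makes malonyl-CoA, was at 13.0, 16.3 and 7.34 FPKM in sham replicates 1 to 3 and at 6.03, 5.58 and 4.59 FPKM in MI/RI replicates 1 to 3. Every MI/RI sample was below every sham sample. Acacb fell by 1.10 on the log2 scale (SE 0.30, adjusted p = 0.0215, limma). Its call was lost without sham replicate 1 (adjusted p = 0.0559), without sham replicate 2 (adjusted p = 0.0816) and without MI/RI replicate 3 (adjusted p = 0.0646, limma).

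Mlycd, the decarboxylase that breaks malonyl-CoA down, was at 18.7, 11.8 and 8.47 FPKM in sham replicates 1 to 3 and at 65.0, 26.1 and 21.7 FPKM in MI/RI replicates 1 to 3. It rose by 1.42 (SE 0.43, adjusted p = 0.0292, limma), and its log2 fold change was -0.96 after centring on cardiomyocyte markers. Without MI/RI replicate 1 it was 0.94 (adjusted p = 0.0700, limma), and the call was also lost without sham replicate 2 (adjusted p = 0.0964) and without sham replicate 3 (adjusted p = 0.102, limma).

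Of 8 nuclear receptors and coactivators tested, 3 were called higher, against 25.5% of all genes tested. Each of the 3 was below 0 after centring on cardiomyocyte markers, where 85.7% of all genes tested were called lower. Ppargc1a, the coactivator of mitochondrial and fatty acid oxidation genes, was at 0.813, 1.05 and 0.568 FPKM in sham replicates 1 to 3 and at 2.68, 3.80 and 2.88 FPKM in MI/RI replicates 1 to 3. Unlike the 9 genes above, it was highest in MI/RI replicate 2. Ppargc1a rose by 1.84 (SE 0.28, adjusted p = 0.00318, limma). The receptor genes Ppard (1.57, adjusted p = 0.00787) and Rxrg (1.21, adjusted p = 0.0173, limma), both named after their values were seen, were the others. Rxrg lost its call without sham replicate 2 (adjusted p = 0.0584) and without sham replicate 3 (adjusted p = 0.0665, limma). The lowest was Ppargc1b, a related coactivator, at -0.11 (SE 0.58, adjusted p = 0.898, limma). Ppara, the receptor for which the target list was made, was at 0.578 to 1.67 FPKM in the sham group, against 0.865 to 1.32 FPKM in the MI/RI group, with a log2 fold change of 0.04 (SE 0.37, adjusted p = 0.949, limma). Its groups overlapped fully.

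Among 7 other targets of PPAR-alpha tested, 4 were called higher and 0 lower (limma), against 25.5% and 7.36% of all genes tested. The count lower was also 0 at an unadjusted p under 0.05, and it was 1 with the replicate block (limma). Plin5, which coats lipid droplets next to mitochondria, rose most, by 1.77 (SE 0.49, adjusted p = 0.0223, limma). It was 1.22 without MI/RI replicate 1 (adjusted p = 0.0584), and the call was also lost without sham replicate 2 (adjusted p = 0.0611) and without sham replicate 3 (adjusted p = 0.0789, limma). The others called higher were the lipid droplet gene Plin2 (1.10), the uncoupling protein gene Ucp2 (1.43) and the mitochondrial acyl-CoA thioesterase gene Acot2 (1.38), named after their values were seen. Acot2 lost its call without sham replicate 3 (adjusted p = 0.0557, limma). All 4 were below 0 after centring on cardiomyocyte markers, where 85.7% of all genes tested were called lower.

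Ucp3, the uncoupling protein gene of muscle, had the lowest log2 fold change of these targets. It was at 3.44, 6.94 and 1.06 FPKM in sham replicates 1 to 3 and at 2.01, 1.32 and 0.883 FPKM in MI/RI replicates 1 to 3. Sham replicate 3 lay among the MI/RI samples, so the groups overlapped. Its log2 fold change was -1.10 (SE 0.56, adjusted p = 0.158, limma), and it passed the threshold with the replicate block (adjusted p = 0.0422, limma). Without sham replicate 3 it was -1.80 and was called (adjusted p = 0.0206, limma), and without sham replicate 2 it was -0.50 (adjusted p = 0.492, limma).

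For 4 of the genes, a second gene of like function was fixed for a ratio within each sample, besides the ratio of the trifunctional subunits. Multiplying a library by a constant leaves such a ratio the same apart from the pseudocount. A shift between cell types, like that of the cardiomyocyte markers, is not removed, and its part in the ratios was not tested. Cpt1b over Cpt1a, the liver form of the outer-membrane enzyme, was 4.82, 3.23 and 3.12 in sham replicates 1 to 3, against 16.7, 12.2 and 6.90 in MI/RI replicates 1 to 3. The mRNA of the muscle form thus exceeded that of the liver form in every sample, and by more in every MI/RI sample than in any sham sample. On the log2 scale the ratio was 1.85 ± 0.35 for sham and 3.46 ± 0.64 for MI/RI (SD, n = 3 each). The difference was 1.60 (two-sided exact permutation test, p = 0.1, adjusted over 5 ratios p = 0.125). Cpt1a itself was at 6.37, 9.40 and 6.02 FPKM in sham replicates 1 to 3 and at 5.72, 3.90 and 5.06 FPKM in MI/RI replicates 1 to 3, with a log2 fold change of -0.55 (SE 0.26, adjusted p = 0.126, limma).

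Fabp3 over Fabp4 was 0.689, 0.143 and 0.172 in sham replicates 1 to 3, against 7.14, 2.15 and 2.14 in MI/RI replicates 1 to 3. The mRNA of the heart muscle binding protein was thus below that of the adipocyte and endothelial one in every sham sample and above it in every MI/RI sample. The log2 ratio was -1.96 ± 1.24 for sham and 1.68 ± 1.0 for MI/RI (SD, n = 3 each), which differ by 3.64 (two-sided exact permutation test, p = 0.1, adjusted over 5 ratios p = 0.125). Fabp4 itself was at 541, 1329 and 742 FPKM in sham replicates 1 to 3 and at 255, 566 and 496 FPKM in MI/RI replicates 1 to 3, and the groups overlapped. The summed level of 8 endothelial markers was 199.8 to 255 FPKM in the sham group, against 197 to 228 FPKM in the MI/RI group. In limma 0 of these 8 were called, and 3 had a log2 fold change above 0. The 2 with an unadjusted p under 0.05 went opposite ways, Kdr at 0.72 and Tek at -0.55, both named after their values were seen. With the replicate block, 1 was called higher, which was Kdr (adjusted p = 0.0451, limma). Of 6 adipocyte markers, 5 were at 0 in some sample (Adipoq, Plin1, Cidec, Lep and Retn), and the sum was 9.12 to 11.6 FPKM in the sham group, against 5.89 to 14.0 FPKM in the MI/RI group. Most of that sum was Cfd, at 8.98 to 11.4 FPKM in the sham group and 5.80 to 10.8 FPKM in the MI/RI group. In MI/RI replicate 2, Adipoq (1.72), Plin1 (0.306), Cidec (0.436) and Retn (0.685 FPKM) had their highest values, while Lep was highest in MI/RI replicate 3.

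Acsl1 over Acsl4, an acyl-CoA synthetase that prefers arachidonic acid, was 38.7, 22.0 and 21.0 in sham replicates 1 to 3, against 215, 66.1 and 43.4 in MI/RI replicates 1 to 3. The difference on the log2 scale was 1.65, from 4.52 ± 0.44 to 6.17 ± 1.13 (SD, n = 3 each; two-sided exact permutation test, p = 0.1, adjusted over 5 ratios p = 0.125). Acsl4 was low throughout, at 0.405 to 1.04 FPKM. Acadl over Acadm went down, from 12.6, 7.94 and 8.21 in sham replicates 1 to 3 to 3.79, 7.18 and 6.90 in MI/RI replicates 1 to 3. MI/RI replicate 1 had the lowest ratio, and the other MI/RI samples lay close to sham replicate 2. The log2 difference was -0.70, from 3.22 ± 0.37 to 2.52 ± 0.51 (SD, n = 3 each; two-sided exact permutation test, p = 0.1, adjusted over 5 ratios p = 0.125). No ratio passed 0.05, which 3 samples against 3 cannot reach.

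**Figure D3:**
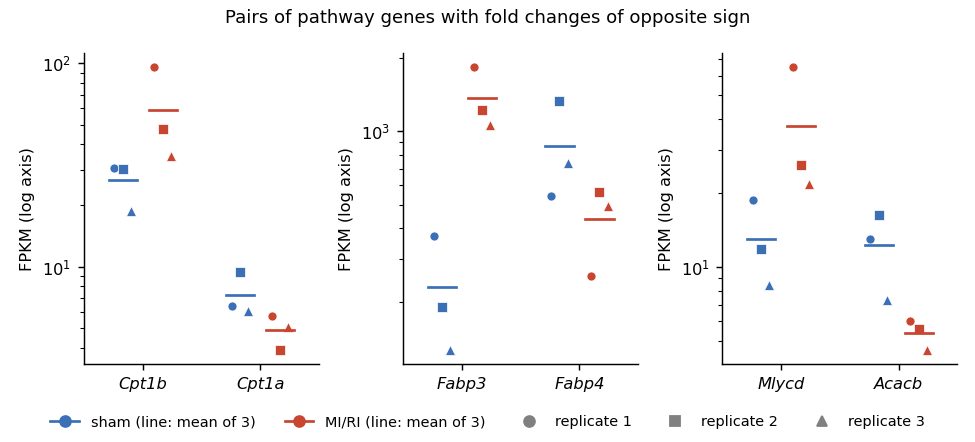
FPKM (log axes) in the 3 sham samples (blue) and the 3 MI/RI samples (red) of 3 pairs of pathway genes whose log2 fold changes had opposite signs, with a line at each group mean. From left to right the pairs are Cpt1b and Cpt1a, Fabp3 and Fabp4, and Mlycd and Acacb, and in each the left gene is higher in every MI/RI sample. Acacb was called lower, and Cpt1a and Fabp4 did not pass the threshold. Centred on cardiomyocyte markers, Cpt1b and Mlycd had log2 fold changes below 0 too, where the median of all genes tested was -2.10.

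The scaling of the libraries set how large the differences were. Relative to the median of all genes tested, the median of the 9 genes was higher by 1.40 as deposited and by 0.77 after quantile normalization. The margin was 1.41 after rescaling to TPM and 1.39 after rescaling without the mitochondrially encoded mRNAs. Both rescalings multiply each library by a constant, which leaves this margin the same apart from the pseudocount. Without the mitochondrially encoded mRNAs, 5 of the 9 genes were called higher, namely Fabp3, Cpt2, Acadm, Acadl and Hadha, against 7.06% of all genes tested. With quantile normalization 4 were called higher, namely Fabp3, Cpt2, Acadm and Acadl, against 13.2% of all genes tested. Leaving out any 1 sample gave between 5 and 8 calls, and Fabp3, Cpt2, Acadm, Acadl and Hadha were called each time.

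The cardiomyocyte markers shifted with the fatty acid oxidation genes. Of the 7 markers with a row, 6 were called higher, the median of their log2 fold changes was 2.46, and none was at 0 in any sample. Their log2 fold changes ran from 0.82 for Ryr2, which was not called, to 3.79 for Actc1, both named after their values were seen. The size of the centring thus depends on the markers listed, and other sets of markers were not tested. Set against the mean of these markers in the same sample, Fabp3 had a log2 difference between the groups of 0.29 (SE 0.40, adjusted p = 0.484, limma) and Acadm of 0.01 (SE 0.45, adjusted p = 0.982, limma). The other 7 genes were then below 0. Acsl1 was at -1.05 (adjusted p = 0.0278), Cpt1b at -1.33 (adjusted p = 0.00488), Acadvl at -1.24 (adjusted p = 0.00557) and Hadhb at -1.24 (adjusted p = 0.00733, limma), and these 4 were called lower. Of all genes tested, 85.7% were called lower under this centring. Cpt2, Acadl and Hadha lay between -0.69 and -0.62 and were not called. Relative to the library 7 of the 9 genes were thus called higher, and relative to the cardiomyocyte markers 4 of them were called lower.

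**Figure D4:**
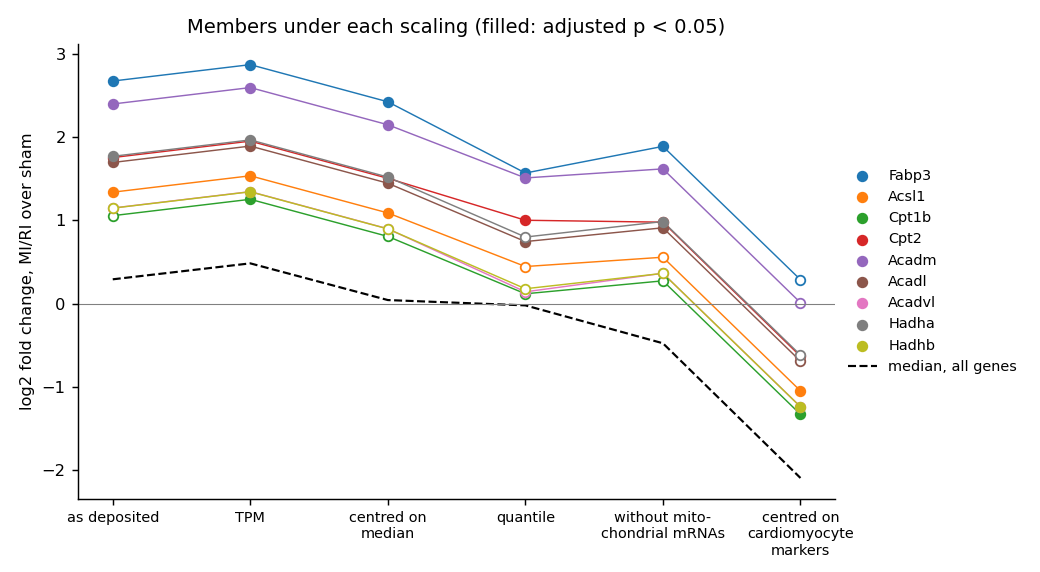
Log2 fold change of MI/RI over sham for the 9 fatty acid uptake and beta-oxidation genes under 6 scalings of the libraries, with filled points at an adjusted p under 0.05 (limma) and the median of all genes tested as a dashed line. Each gene lies above the dashed line under every scaling drawn. Apart from the pseudocount, only quantile normalization can change the distance of a gene from that line. All 9 are above 0 under the first 5 scalings, and after centring on cardiomyocyte markers 7 are below 0 and Fabp3 (0.29) and Acadm (0.01) are above it.

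The marker sums of other cells are given for comparison. For 6 fibroblast markers the sum was 376 to 517 FPKM in the sham group, against 526 to 571 FPKM in the MI/RI group, with 1 of 6 called higher. Macrophage markers summed to 24.1 to 26.0 FPKM and 24.1 to 28.4 FPKM, with 2 of 6 called lower. Neutrophil markers summed to 12.9 to 17.7 FPKM and 28.2 to 83.5 FPKM, with 3 of 4 tested called higher. The part of these cells in the levels of the fatty acid oxidation genes was not tested.

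Genes of other routes of fuel use were higher as well. All 15 enzyme genes of the tricarboxylic acid cycle were called higher, with a median log2 fold change of 1.94. So were 15 of 16 glycolytic genes, with a median of 1.95, against 25.5% of all genes tested. Both medians were below the 2.46 of the cardiomyocyte markers. The 9 fatty acid oxidation genes, with a median of 1.69, were not set apart from these lists by a test.

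Across the 6 samples the 9 genes varied together, with Pearson's r between 0.741 and 0.992 over the 36 pairs (median 0.935). The samples share the difference between the groups and the scaling of each library, so these values are a description. The genes outside all lists whose log2 values followed the mean of the 9 most closely were Nedd4l (r = 0.999), a ubiquitin ligase gene, and then Coq9, needed for coenzyme Q synthesis, Adprs, an ADP-ribose hydrolase gene, Klhl31, expressed in striated muscle, and Pdhx, a subunit of the pyruvate dehydrogenase complex (r = 0.998 each, over 6 samples). Since these genes were chosen for the highest r, their like shape is given by the choice, while their sizes differed. Coq9 was at 33.4, 23.9 and 17.4 FPKM in sham replicates 1 to 3 and at 204, 75.2 and 72.2 FPKM in MI/RI replicates 1 to 3, while Nedd4l was at 1.18, 1.09 and 0.950 FPKM in sham replicates 1 to 3 and at 2.47, 1.67 and 1.57 FPKM in MI/RI replicates 1 to 3. In both, as in the 9 genes, MI/RI replicate 1 was highest.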

How the data were processed

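Total RNA from rat myocardium was sequenced from stranded libraries in 3 sham and 3 MI/RI samples. The authors deposited 1 table of FPKM per gene and sample, and the submitters' processing notes name STAR and HTSeq. Their versions, the genome build, the annotation and the total used for scaling are not given in the sources used here. Genes that share sequence with a close copy are therefore uncertain.

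Columns were matched to samples by name. Of 30452 rows, 7092 had no symbol, and rows sharing a symbol were summed. Log2(FPKM + 0.1) was tested where the mean FPKM reached 0.5, which left 10942 genes, with limma 3.58.1 in R 4.3.3 (intensity trend, Benjamini-Hochberg adjustment, threshold 0.05). Fold changes on this scale are understated for genes with low values. Ratios were compared by two-sided exact permutation tests in scipy 1.17.1. The test across genes was checked on simulated data.

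The 10 genes of fatty acid uptake and oxidation (the members) and the lists were chosen with earlier results of these data known. Genes named were the members, the tested gene with the largest and smallest log2 fold change of each role, the genes of the ratios, and the 5 genes most like the members. Others are marked as named after their values were seen. An item of the pathway list is not reported here and was left out of its counts.

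The study pairs no rats. Deviations of same-numbered samples correlated with r = 0.203, 0.117 and 0.118 for numbers 1, 2 and 3. An alternative fit therefore took the numbers to pair the samples. The reported fit used no replicate block, and correlations this weak do not establish a pairing. Sham replicate 3 correlated as closely with MI/RI replicate 2 (r = 0.120), and the other mismatched pairs were below 0. A replicate block on that number is given where it changed a call. Alternatives were other pseudocounts, filters and scalings, limma without trend, the replicate block, the highest row of each symbol, and each sample left out. Leaving out replicate 1 of both groups was added after seeing the data. Promoter windows came from RefSeq, build GRCr8. Marker lists covered cardiomyocytes, endothelial cells, adipocytes, fibroblasts, macrophages and neutrophils.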

Additional observations from a re-analysis of the deposited data

How the results depend on the processing

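The reported fit called 7 of the 9 fatty acid oxidation genes higher and 0 lower. Other pseudocounts, limma without trend and the highest row of each symbol left this count at 7. A mean FPKM of at least 5, rescaling to TPM and the replicate block raised it to 9. Over all genes tested, those called higher were then 1892 of 3784, 3449 of 10942 and 3085 of 10942, in the same order. The count for the 9 genes was 6 after centring on the median (all genes 2020 of 10942) and 5 with no filter (all genes 2198 of 19226). It was 5 without mitochondrially encoded mRNAs (all genes 772 of 10942) and 4 after quantile normalization (all genes 1441 of 10942). With each sample left out it was 5 to 8, and the count called lower stayed at 0. Centring on cardiomyocyte markers gave 0 higher (limma; 0 also at an unadjusted p under 0.05) and 4 lower, and turned the log2 fold changes of Acsl1 (-1.05), Cpt1b (-1.33), Cpt2 (-0.63), Acadl (-0.69), Acadvl (-1.24), Hadha (-0.62) and Hadhb (-1.24). This centring takes the same amount from every gene, and 85.7% of all genes tested were called lower under it.

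Of the other pathway genes, 25 were higher and 1 lower. The lower count was 0 with no filter and 0 after rescaling to TPM (limma; 2 and 1 at an unadjusted p under 0.05), 3 with the replicate block, 4 without replicate 1 of both groups and 5 after centring on the median. The counts were 9 higher and 5 lower after quantile normalization, 10 and 11 without mitochondrially encoded mRNAs, and 0 and 39 after centring on cardiomyocyte markers (limma; 0 higher also at an unadjusted p under 0.05). With each sample left out, 13 to 24 were higher and 0 to 2 lower, and the 0, without sham replicate 2 and without MI/RI replicate 3, was 2 and 3 at an unadjusted p under 0.05 (limma).

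Among all genes, 2790 were higher and 805 lower. Requiring a mean of 5 FPKM gave 166 lower, TPM gave 504 lower, centring on the median 1554 lower, quantile normalization 1441 higher and 1559 lower, leaving out mitochondrially encoded mRNAs 772 and 2831, and centring on cardiomyocyte markers 34 and 9379. The share of calls in the higher direction was 77.6% as reported, 91.9% among genes with a mean of 5 FPKM or more, 87.3% with TPM, 56.5% with median centring, 48.0% after quantile normalization, 21.4% without mitochondrially encoded mRNAs and 0.361% after centring on cardiomyocyte markers. Over all genes tested, the log2 fold change had a median of 0.29 as reported, 0.48 with TPM, 0.04 with median centring, -0.02 with quantile normalization, -0.48 without mitochondrially encoded mRNAs and -2.10 after centring on cardiomyocyte markers. With each sample left out, 1528 to 2557 were higher and 309 to 881 lower.

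The replicate block (3085 genes higher, 895 lower) added the calls of Cpt1b, Hadhb, Fabp4 and Ucp3 and changed no other call among the fatty acid genes tested. With each sample left out, the log2 difference of the ratios was 1.31 to 1.95 for Cpt1b over Cpt1a, 3.06 to 4.35 for Fabp3 over Fabp4, 1.02 to 2.12 for Acsl1 over Acsl4, 0.41 to 1.03 for Hadha over Hadhb and -0.87 to -0.41 for Acadl over Acadm. Except where stated, the cause of a change was not tested. FPKM gives no depth, so no counting error can be set beside a value, and 3 samples per group limit every test.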

Other observations

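A group of 6 other pathway genes had rows but a mean below 0.5 FPKM and entered no test. Esrra, which encodes an estrogen-related receptor, was at 0.0862 to 0.173 FPKM in the sham group and at 0.174 to 0.536 FPKM in the MI/RI group. Esrrg, its relative, was at 0.0380 to 0.354 FPKM in the sham group and at 0.293 to 0.514 FPKM in the MI/RI group. The peroxisomal transporter gene Abcd2 was at or below 0.118 FPKM, the peroxisomal thiolase gene Acaa1b at or below 0.177 FPKM and the acyl-CoA thioesterase gene Acot1 at or below 0.333 FPKM in all samples. Slc27a6, a fatty acid transport protein gene, was listed at 0 in 4 of 6 samples and at 0.0321 FPKM at most. The groups were narrowly apart for Esrra. FPKM gives no counts, so the counting error at these levels is not known.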
